A study of Homo sapiens with 6 samples.

Results

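The genes described here are 52 translation factors: the initiation factors from EIF1 to EIF6, the elongation factors of the eEF1 and eEF2 families, the release factors ETF1 and GSPT1, and the poly(A)-binding proteins PABPC1 and PABPC4. They were taken by symbol from a table of 60649 genes, and all 52 were among the 16039 genes with enough counts to be tested. The table holds RNA-seq counts for 6 libraries of 786-O, a widely used cell line from a human clear cell renal carcinoma, without a working VHL tumour suppressor. In 4 libraries the long non-coding RNA LINC02068 was targeted, 2 of them with the hairpin shRNA1 and 2 with the hairpin shRNA2, and the labels give these cells the genotype LINC02068 knockdown. They are compared with 2 libraries of 786-O cells that carry the hairpin shControl, whose genotype is given as WT. The labels state no treatment for any group. They do not say whether a knockdown line is 1 clone or a pool, nor whether the 2 libraries of a group come from separate cultures, so the p-values measure only the spread between these libraries, which may be technical.

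Protein synthesis starts when eIF2, loaded with GTP and the initiator tRNA, joins the small ribosomal subunit together with eIF1, eIF1A, eIF3 and eIF5. The mRNA is brought in by eIF4F, made of the cap-binding protein eIF4E, the scaffold eIF4G and the helicase eIF4A; 4E-BP proteins hold eIF4E away from eIF4G until mTORC1 phosphorylates them. Elongation is then carried by eEF1A, which delivers aminoacyl-tRNAs, and by eEF2, which moves the ribosome along, and eRF1 with eRF3 releases the finished chain. Translation is raised in many tumours, and the mRNAs of several of these factors carry a 5′ terminal oligopyrimidine (TOP) tract that places their own translation under mTORC1.

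LINC02068 had 0.605 and 0.105 CPM with shRNA1, 0.472 and 0.478 CPM with shRNA2, and 1.07 and 1.14 CPM with shControl (log2 fold change -1.46 ± 0.59, edgeR adjusted p = 0.0447); errors of log2 fold changes are standard errors throughout, and CPM is counts per 1e6 counts of a library scaled by trimmed mean of M values (TMM). All 4 hairpin libraries lay below both shControl libraries, at very low levels, and neither hairpin alone passed the test. The call was also lost with DESeq2 and when any single library other than shRNA1 replicate 1 was left out (-1.02 without shRNA1 replicate 2, -1.45 and -1.46 without either shRNA2 library, and -1.50 and -1.41 without either shControl library). The libraries held between 15376448 and 37311846 counts. Mitochondrial transcripts took 2.57% to 2.71% of the counts in hairpin libraries and 2.30% to 2.43% in shControl libraries, and the TMM factors were 0.960 to 0.969 in hairpin libraries and 1.07 to 1.08 in shControl libraries. In a principal component analysis of all tested genes, the hairpin and shControl libraries separated on the first component (55.3% of the variance), and shRNA1 replicate 1 stood apart from the other 5 libraries on the second (15.1%). The renal line markers PAX8, PAX2, VIM, KRT8, KRT18 and EPAS1 were present in every library, whereas PTPRC, CD3E, MS4A1, CDH5, ALB and DCN, markers of other cell types, had 0 counts in all 6. Of the other 5 such markers, CD68 had 35.8 to 44.0 CPM with overlapping groups, PECAM1, VWF and RGS5 had at most 2.25 CPM, and PDGFRB had 1.83 ± 0.376 CPM over the 4 hairpin libraries and 3.80 ± 0.992 CPM over the 2 shControl libraries. The renal line markers also differed between the groups. For the mean of both hairpins against shControl, EPAS1 was lower (log2 fold change -0.96). KRT8, PAX2, KRT18, VIM and PAX8 were higher (0.90, 0.56, 0.27, 0.21 and 0.10). The part of the mitochondrial share, PDGFRB and these marker differences in the results that follow was not tested. Fits with and without the TMM factors are both given below.

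Transcripts of the translation machinery were mostly higher in the knockdown cells. Against shControl, the mean of both hairpins was higher for 38 of the 52 genes and lower for 9, with 5 not called (EIF1AX, EIF2A, EIF2B3, EIF2B5 and EIF3E), at an edgeR quasi-likelihood adjusted p under 0.05. The same test called 57.5% of all 16039 genes, 28.6% as higher and 28.9% as lower, while 73.1% of the translation factors were higher and 17.3% lower. Their median log2 fold change was 0.29, and the median over all tested genes was -0.03. The shares over all tested genes include genes with far lower counts and were not matched for expression level. Small changes are harder to call at low counts. The increases were mostly small: 4 genes changed by more than 1 log2 unit, EIF4E2, EIF4EBP2 and EIF5A upward and EIF4EBP1 downward, and 12.7% of all tested genes did so. These values are shares of the RNA in a bulk culture, so a change in RNA per cell and a change in the mix of cells cannot be told apart.

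The 52 genes together took 2.68% to 2.71% of all counts in the hairpin libraries and 2.44% to 2.45% in the shControl libraries. The median factor gene had 174 to 180 CPM in the hairpin libraries and 147 to 152 CPM in the shControl libraries, so the groups did not overlap. For 40 of the 52 genes every hairpin library was above both shControl libraries, and for 9 every one was below; over all tested genes, 32.7% and 34.2% were separated in these 2 ways. The smallest count of any factor in any library was 364, so none was near 0. Precision still differed between factors. EIF2B3, which held that count, was not called at a log2 fold change of 0.18 ± 0.091. The far more abundant PABPC1 was called at 0.14 ± 0.024. The call was sensitive to how libraries are scaled. Without the TMM factors, 28 genes were higher and 11 lower, against 21.2% and 37.6% of all tested genes, and the median of all tested genes was -0.18. The distance between the median factor and the median gene was 0.31 on the log2 scale under both scalings. A change of scaling moves every gene alike, so that distance had to stay the same and is no check of the result. Tested against a fold of 1.2 in place of no change, 24 factors were higher and 5 lower, where 19.3% and 20.2% of all tested genes were. With the trend on gene length and GC content removed, 42 factors were higher and 5 lower, where 32.8% and 24.7% of all tested genes were.

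**Figure D1:**
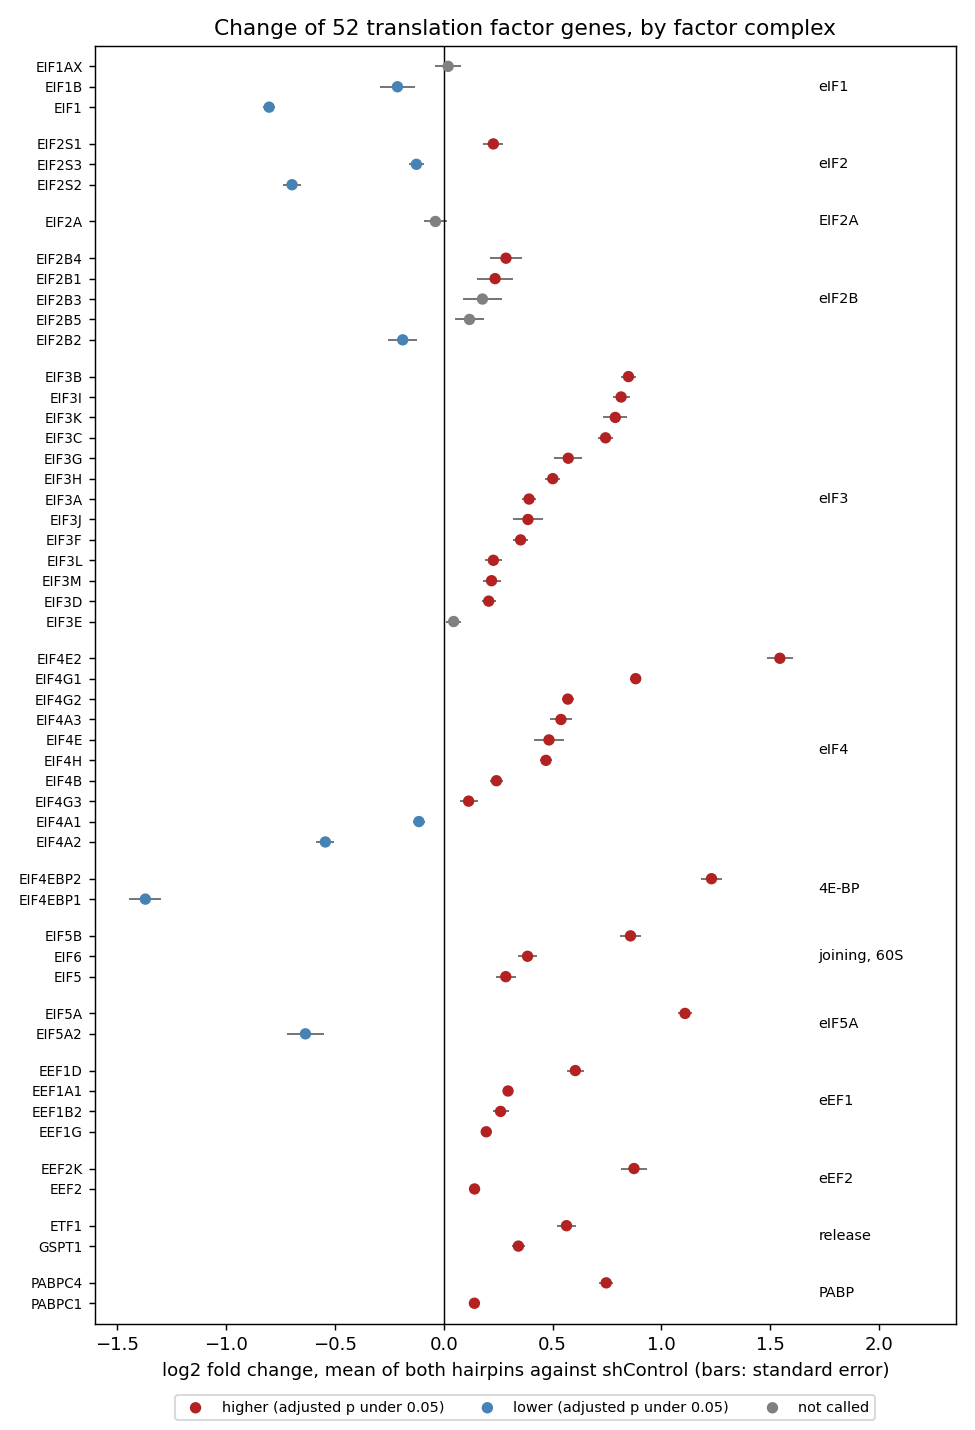
Log2 fold change (x axis) of each of the 52 genes, mean of both hairpins against shControl, grouped by factor complex (right margin); bars are standard errors and colours mark the call at an adjusted p under 0.05. The points run from -1.37 for EIF4EBP1 to 1.54 for EIF4E2, and 38 are called higher and 9 lower; under scaling by total counts alone EIF1AX, EIF2B5, EIF3E, EIF4G3, EEF2 and PABPC1 fall on the other side of 0.

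Both hairpins gave like values. With shRNA1, 36 factors were higher and 7 lower than in shControl; over all tested genes 52.4% were called, 26.8% as higher and 25.6% as lower. With shRNA2, 37 were higher and 9 lower; over all tested genes 52.8% were called, 26.7% as higher and 26.1% as lower. These comparisons share the 2 shControl libraries. The direct comparison of shRNA1 with shRNA2 does not contrast them, though they enter its filter, scaling and estimate of spread. It called 0 of the 52 factors by edgeR, where 5 of 16039 tested genes (0.0312%) were called, and 0 by DESeq2. Fitted on the shRNA1 and shRNA2 libraries alone, edgeR also called 0 factors. With so few calls over all tested genes, 0 calls does not set these factors apart. Shares over all tested genes are not given for DESeq2 or for the fit on the hairpin libraries alone. In the fit on all 6 libraries 1 factor, the eEF2 kinase EEF2K, had an unadjusted edgeR p under 0.05. The widest gap between the hairpins was 0.18 on the log2 scale, for EIF2B1, the alpha subunit of the exchange factor for eIF2. Without shRNA1 replicate 1, the library that stood apart, the mean of both hairpins was higher for 37 factors and lower for 7. The share over all tested genes in that fit is not given.

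The eIF4 group held the most strongly raised factor. Its 10 genes were grouped by symbol, so they include EIF4A3, which is not part of eIF4F. Of the 10 genes 8 were higher and 2, the helicase genes EIF4A1 and EIF4A2, were lower, with a median log2 fold change of 0.48. With total counts EIF4G3 turned to -0.04 and was not called, leaving 7 higher and 2 lower. EIF4E2 (ENSG00000135930.14, chr2:232550052-232583644 on the plus strand of GRCh38), which encodes the eIF4E homologue 4EHP, a cap-binding protein that does not bind eIF4G well and is used in mRNA repression and in hypoxic translation, had 88.4 and 86.0 CPM with shRNA1, 89.0 and 91.8 CPM with shRNA2, and 29.6 and 31.2 CPM with shControl. All 4 hairpin libraries stood close together and far above both shControl libraries, at 2.92 times the shControl level (log2 fold change 1.54 ± 0.059, edgeR adjusted p = 6.1e-12), and the log2 fold change was 1.52 with shRNA1 and 1.57 with shRNA2. EIF4E itself, the canonical cap-binding protein, had 61.7 and 56.2 CPM with shRNA1, 54.9 and 58.6 CPM with shRNA2, and 39.1 and 43.4 CPM with shControl, also without overlap (log2 fold change 0.48 ± 0.069, edgeR adjusted p = 2.1e-05). On the annotation EIF4E2 shares 541 exonic bases with TIGD1 on the other strand, and TIGD1 was counted at 2.51% of EIF4E2's counts; whether counting used strand is not given in the sources used here.

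The 3 eIF4G scaffolds were higher by different amounts, though EIF4G3 was at -0.04 with total counts. EIF4G1, which ties eIF4E, eIF4A and the poly(A)-binding protein into one complex, had 1110.0 and 1121 CPM with shRNA1, 1135 and 1111 CPM with shRNA2, and 610.4 and 605 CPM with shControl. For EIF4G1 the log2 fold change was 0.88 ± 0.027, with an edgeR adjusted p of 4.5e-13. EIF4G2, also known as DAP5, which lacks the eIF4E-binding region and serves non-canonical initiation, had 1129 and 1121 CPM with shRNA1, 1113 and 1150.0 CPM with shRNA2, and 752 and 768 CPM with shControl. For EIF4G2 the log2 fold change was 0.57 ± 0.027, with an edgeR adjusted p of 7.4e-11. EIF4G3 had 153 and 145 CPM with shRNA1, 144 and 152 CPM with shRNA2, and 137 and 137 CPM with shControl; its edgeR adjusted p was 0.028 for a log2 fold change of 0.11 ± 0.042, and the call was lost with DESeq2 (0.12), without shRNA2 replicate 2 (0.090), without shControl replicate 1 (0.11), without shControl replicate 2 (0.11), with no filter on low counts (0.095) and with a stricter one (0.094). The groups did not overlap for any of the 3 scaffolds, and the step was widest for EIF4G1.

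The helicase subunits went the other way. EIF4A1, the main RNA helicase of eIF4F, had 572 and 553 CPM with shRNA1, 531 and 552 CPM with shRNA2, and 603 and 591 CPM with shControl (log2 fold change -0.11 ± 0.029, edgeR adjusted p = 0.00364), a small step that was not called once the trend on gene length and GC content was removed. EIF4A1 shares 1586 exonic bases with the read-through transcript SENP3-EIF4A1 on the same strand, so reads may be divided between them. SENP3-EIF4A1 had 135 and 158 counts with shRNA1, 993 and 720 counts with shRNA2, and 0 and 1704 counts with shControl. With its reads and those of the pseudogene EIF4A1P10 added, EIF4A1's log2 fold change was -0.14. EIF4A2, a close homologue linked to microRNA-guided repression, fell further and had 119.9 and 127 CPM with shRNA1, 121 and 128 CPM with shRNA2, and 181 and 179.9 CPM with shControl. For EIF4A2 the log2 fold change was -0.54 ± 0.041, with an edgeR adjusted p of 1.5e-08. EIF4A3 belongs to the exon junction complex rather than to eIF4F and was higher by 0.54 ± 0.051 (edgeR adjusted p = 2.3e-07). The helicase cofactors were higher too, EIF4B by 0.24 ± 0.029 and EIF4H by 0.47 ± 0.028 on the log2 scale (edgeR adjusted p = 3.9e-06 for EIF4B and 9.3e-10 for EIF4H).

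The 2 genes for 4E-BPs, the repressors of eIF4E, changed in opposite directions and by more than 1 log2 unit each. EIF4EBP1 (ENSG00000187840.5), whose protein is the best known mTORC1 substrate of the pair, had 36.1 and 30.0 CPM with shRNA1, 30.1 and 31.2 CPM with shRNA2, and 78.3 and 85.8 CPM with shControl. For EIF4EBP1 the log2 fold change was -1.37 ± 0.073, with an edgeR adjusted p of 3.0e-10. EIF4EBP2 (ENSG00000148730.7, chr10:70404379-70428618 on the plus strand of GRCh38), its homologue, had 161 and 163 CPM with shRNA1, 168 and 163 CPM with shRNA2, and 73.5 and 66.4 CPM with shControl. For EIF4EBP2 the log2 fold change was 1.23 ± 0.048, with an edgeR adjusted p of 8.1e-12. Neither gene showed overlap between the groups. Per kilobase of exon, EIF4EBP1 had 29.7 CPM and EIF4EBP2 22.55 CPM in hairpin libraries, and EIF4EBP1 had 76.5 CPM and EIF4EBP2 9.64 CPM in shControl libraries, so the per-length levels lay closer together in the knockdown cells. The log2 fold changes were -1.32 with shRNA1 and -1.42 with shRNA2 for EIF4EBP1, and 1.22 with shRNA1 and 1.24 with shRNA2 for EIF4EBP2. The count table gives mRNA only and says nothing of the phosphorylation of either protein.

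The 250 bases before the annotated start of 4 of these genes are printed below because EIF4E2 changed most, EIF4E is its homologue and EIF4G1 the scaffold that binds EIF4E, and EIF5A2 fell while its homologue EIF5A rose. They come from RefSeq on GRCh38.p14, 5′ to 3′ on the gene's strand, and capitals mark the E-box CACGTG, the element bound by MYC and related factors, and CCGGAAG, a core of ETS-family sites, searched on both strands.
EIF4E2 (chr2:232550439-232550688, plus strand): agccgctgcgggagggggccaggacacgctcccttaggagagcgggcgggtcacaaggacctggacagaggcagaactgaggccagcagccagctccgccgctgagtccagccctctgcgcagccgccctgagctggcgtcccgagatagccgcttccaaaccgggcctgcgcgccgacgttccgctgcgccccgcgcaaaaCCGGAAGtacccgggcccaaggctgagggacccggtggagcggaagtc
EIF4E (chr4:98929134-98929383, minus strand): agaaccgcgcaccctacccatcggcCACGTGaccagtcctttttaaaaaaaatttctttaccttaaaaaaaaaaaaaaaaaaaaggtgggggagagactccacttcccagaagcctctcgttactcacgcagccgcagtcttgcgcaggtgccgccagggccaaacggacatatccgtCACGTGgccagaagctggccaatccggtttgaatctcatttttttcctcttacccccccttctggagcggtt
EIF4G1 (chr3:184314356-184314605, plus strand): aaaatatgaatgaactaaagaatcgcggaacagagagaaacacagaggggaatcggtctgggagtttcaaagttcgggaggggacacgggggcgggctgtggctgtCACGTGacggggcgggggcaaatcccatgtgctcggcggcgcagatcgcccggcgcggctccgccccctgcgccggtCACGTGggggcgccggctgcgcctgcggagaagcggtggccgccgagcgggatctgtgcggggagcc
EIF5A2 (chr3:170908638-170908887, minus strand): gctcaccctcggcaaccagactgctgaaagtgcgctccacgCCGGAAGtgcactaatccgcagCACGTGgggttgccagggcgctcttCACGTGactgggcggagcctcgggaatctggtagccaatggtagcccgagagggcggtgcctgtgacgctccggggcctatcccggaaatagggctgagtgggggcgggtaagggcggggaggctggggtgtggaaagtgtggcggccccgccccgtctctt
EIF4E2 held CCGGAAG 48 bases before the start and no CACGTG. EIF4E held CACGTG starting 225 and 72 bases before the start, and EIF4G1 held it at 144 and 67 bases. EIF5A2, which was lower, held CACGTG at 187 and 162 bases and CCGGAAG at 209 bases. RefSeq windows were matched for 42 of the 52 genes, and CACGTG was found in 11 of them (26.2%), against 11.2% of 11026 tested genes with a window and 6.34% of all 35116 windows of that length. Of the 11 genes with CACGTG, 8 were higher, 2 were lower and 1 was not called, with a median log2 fold change of 0.47; the 31 genes without it had a median of 0.26, and 23 were higher. CCGGAAG was also found in 11 of the 42 genes, against 18.5% of tested genes and 8.52% of all windows. A match of letters is not a bound site.

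Of the 3 genes of the eIF1 group, which serves the reading of start codons, 2 were lower and 1 was not called; with the trend on gene length and GC content removed 1 was lower and 1, EIF1AX, was higher. EIF1, which keeps the scanning ribosome from settling on wrong start codons, had 408 and 402 CPM with shRNA1, 392 and 397 CPM with shRNA2, and 686 and 706 CPM with shControl, or 0.574 times the shControl level. For EIF1 the log2 fold change was -0.80 ± 0.027, with an edgeR adjusted p of 1.9e-12. Its homologue EIF1B had 30.2 and 29.6 CPM with shRNA1, 27.2 and 30.6 CPM with shRNA2, and 32.0 and 35.9 CPM with shControl, with a log2 fold change of -0.21 ± 0.081 and an edgeR adjusted p of 0.0366. That call was lost with DESeq2 (-0.21), without shRNA1 replicate 1 (-0.20) or 2 (-0.19), without shRNA2 replicate 1 (-0.18), without shControl replicate 2 (-0.13) and with the length and GC trend removed (-0.11). EIF1AX, the eIF1A that binds beside eIF1, had 97.4 and 88.0 CPM with shRNA1, 91.3 and 79.6 CPM with shRNA2, and 88.4 and 87.2 CPM with shControl; these groups overlap, and its edgeR adjusted p was 0.797, but it was called higher with the length and GC trend removed (0.28, edgeR adjusted p = 5.9e-04).

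The 3 subunits of eIF2 did not move together. EIF2S2, the beta subunit, which binds eIF5 and eIF2B, had 127 and 135 CPM with shRNA1, 126 and 133 CPM with shRNA2, and 212 and 210.3 CPM with shControl, or 0.617 times the shControl level. For EIF2S2 the log2 fold change was -0.70 ± 0.040, with an edgeR adjusted p of 6.9e-10. EIF2S3, the gamma subunit that carries GTP, had 184 and 185 CPM with shRNA1, 189.5 and 188 CPM with shRNA2, and 204 and 203 CPM with shControl, a small decrease that was not called once the trend on gene length and GC content was removed (log2 fold change -0.13 ± 0.033, edgeR adjusted p = 0.00432). EIF2S1, the alpha subunit phosphorylated under stress, had 148 and 134 CPM with shRNA1, 132 and 132 CPM with shRNA2, and 115 and 117 CPM with shControl and was higher (log2 fold change 0.23 ± 0.045, edgeR adjusted p = 4.9e-04), but was not called with total counts (0.07, edgeR adjusted p = 0.183). EIF2S1 shares exonic bases with ATP6V1D on the other strand, a gene counted at 36.1% of its level and higher by 0.80 on the log2 scale. EIF2A, an unrelated factor that can deliver initiator tRNA without eIF2, had 75.0 and 71.6 CPM with shRNA1, 77.9 and 81.7 CPM with shRNA2, and 78.7 and 78.2 CPM with shControl, with overlapping groups (log2 fold change -0.038 ± 0.052, edgeR adjusted p = 0.559). It was called lower with total counts (-0.19, edgeR adjusted p = 0.00449) and was at 0.12 with the length and GC trend removed.

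The exchange factor eIF2B, which reloads eIF2 with GTP and is blocked by phosphorylated eIF2, showed small differences: 2 of its 5 subunits were higher, 1 was lower and 2 were not called. With total counts none was higher and 1 was lower, and with the length and GC trend removed 4 were higher and none was lower. EIF2B4, the delta subunit, had 36.8 and 36.7 CPM with shRNA1, 36.5 and 35.1 CPM with shRNA2, and 29.2 and 30.2 CPM with shControl. For EIF2B4 the log2 fold change was 0.29 ± 0.072, with an edgeR adjusted p of 0.00304. EIF2B1, the alpha subunit, had 31.6 and 27.3 CPM with shRNA1, 33.5 and 33.3 CPM with shRNA2, and 26.3 and 26.9 CPM with shControl (log2 fold change 0.24 ± 0.082, edgeR adjusted p = 0.0228), and EIF2B2, the beta subunit, had 38.4 and 37.7 CPM with shRNA1, 37.0 and 38.4 CPM with shRNA2, and 42.2 and 44.0 CPM with shControl (log2 fold change -0.19 ± 0.066, edgeR adjusted p = 0.0246). Both calls were lost with DESeq2. That of EIF2B1 was also lost with total counts (0.081), with no filter on low counts (0.22), without shRNA1 replicate 1 (0.20), shRNA2 replicate 1 (0.23) or 2 (0.23), and shControl replicate 1 (0.21) or 2 (0.24), and that of EIF2B2 with the length and GC trend removed (-0.091), without shRNA1 replicate 1 (-0.18) or 2 (-0.16), shRNA2 replicate 1 (-0.18) and shControl replicate 2 (-0.16). The catalytic subunit EIF2B5 had a log2 fold change of 0.12 ± 0.066 and EIF2B3, its partner, 0.18 ± 0.091 (edgeR adjusted p = 0.14 for EIF2B5 and 0.109 for EIF2B3); both were called with the length and GC trend removed (0.18 for EIF2B5, 0.24 for EIF2B3).

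The eIF3 complex, the scaffold that joins the small subunit to the mRNA, was raised nearly throughout: 12 of 13 subunit genes were higher, none was lower and EIF3E was not called, with a median log2 fold change of 0.39. With total counts 9 were higher and EIF3E was lower (-0.11, edgeR adjusted p = 0.0131), while EIF3D, EIF3L and EIF3M were not called; with the length and GC trend removed all 13 were higher. The increase was uneven across the complex. EIF3B, which binds RNA and holds EIF3I and EIF3G, had 530.4 and 568 CPM with shRNA1, 552 and 575 CPM with shRNA2, and 301 and 317 CPM with shControl. For EIF3B the log2 fold change was 0.85 ± 0.036, with an edgeR adjusted p of 2.8e-11. EIF3I, a beta-propeller subunit, had 330.1 and 333 CPM with shRNA1, 329 and 339.6 CPM with shRNA2, and 179.9 and 198 CPM with shControl. For EIF3I the log2 fold change was 0.81 ± 0.039, with an edgeR adjusted p of 9.6e-11. EIF3C, which contacts eIF1 and eIF5, had 337 and 325 CPM with shRNA1, 325 and 339 CPM with shRNA2, and 199.7 and 196 CPM with shControl. For EIF3C the log2 fold change was 0.74 ± 0.034, with an edgeR adjusted p of 4.9e-11. In all 3 the hairpin libraries lay well clear of the shControl libraries.

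The remaining eIF3 subunits spanned a wide range. EIF3K, a peripheral subunit, was higher by 0.79 and EIF3G, an RNA-binding subunit, by 0.57. EIF3H, EIF3A, EIF3J and EIF3F were higher by 0.50, 0.39, 0.39 and 0.35 on the log2 scale. EIF3L, EIF3M and EIF3D, the last a subunit that can itself bind caps, were higher by 0.23, 0.22 and 0.21. EIF3E had 284 and 265 CPM with shRNA1, 265 and 263 CPM with shRNA2, and 262 and 259 CPM with shControl (log2 fold change 0.046 ± 0.035, edgeR adjusted p = 0.277), and was called higher without shRNA1 replicate 2 (0.087, edgeR adjusted p = 0.0481) and with the length and GC trend removed (0.24, edgeR adjusted p = 8.9e-06). The 5 subunits whose orthologues form the core of eIF3 in budding yeast (EIF3A, EIF3B, EIF3C, EIF3G and EIF3I) had a median of 0.74, and the other 8 a median of 0.29. EIF3C has a near-identical copy, EIF3CL, which was given 91.8% as many reads; with these added, EIF3C's log2 fold change was 0.71. EIF3J overlaps SPG11 on the other strand, which had 122% of its counts and was lower (-0.27); the part of such overlaps in these values was not tested.

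**Figure D2:**
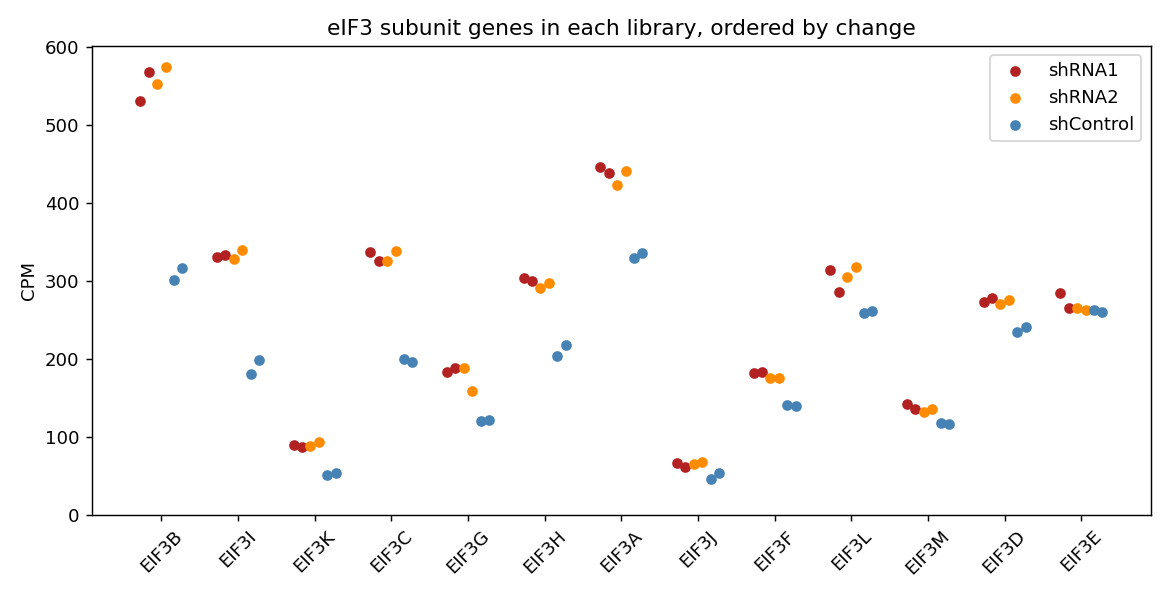
CPM (y axis) of the 13 eIF3 subunit genes in each of the 6 libraries, ordered by log2 fold change; red points are shRNA1, orange shRNA2 and blue shControl. The red and orange points lie above the blue ones for all 13 genes, widely for EIF3B and EIF3I and barely for EIF3E, which with total counts was lower (-0.11) and with the length and GC trend removed higher (0.24).

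The joining factors were higher as well. EIF5B, the GTPase that joins the ribosomal subunits, had 158 and 154 CPM with shRNA1, 148 and 153 CPM with shRNA2, and 80.8 and 88.0 CPM with shControl. For EIF5B the log2 fold change was 0.86 ± 0.046, with an edgeR adjusted p of 3.0e-10. EIF5, which triggers GTP hydrolysis by eIF2, had 133 and 119.7 CPM with shRNA1, 124 and 125 CPM with shRNA2, and 102 and 103 CPM with shControl. For EIF5 the log2 fold change was 0.29 ± 0.047, with an edgeR adjusted p of 8.5e-05. EIF6, which keeps the large subunit apart until it is mature, had 161 and 176 CPM with shRNA1, 173 and 184 CPM with shRNA2, and 129.8 and 136 CPM with shControl. For EIF6 the log2 fold change was 0.39 ± 0.046, with an edgeR adjusted p of 2.9e-06. None of the 3 showed overlap between the groups, and all were called with either scaling.

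The hypusine-bearing factor eIF5A, which helps ribosomes past stalling sequences such as runs of proline, gave one of the clearest changes. EIF5A (ENSG00000132507.18, chr17:7306999-7312463 on the plus strand of GRCh38) had 873 and 888 CPM with shRNA1, 863 and 904 CPM with shRNA2, and 403 and 415 CPM with shControl, or 2.16 times the shControl level (log2 fold change 1.11 ± 0.030, edgeR adjusted p = 1.7e-13; 1.11 with shRNA1 and 1.11 with shRNA2). Its homologue EIF5A2, amplified in some tumours, fell and had 35.0 and 29.8 CPM with shRNA1, 33.8 and 28.5 CPM with shRNA2, and 48.9 and 49.8 CPM with shControl. For EIF5A2 the log2 fold change was -0.63 ± 0.084, with an edgeR adjusted p of 1.0e-05. DHPS, the enzyme that starts hypusine formation on eIF5A, had 17.3 and 17.5 CPM with shRNA1, 18.3 and 19.6 CPM with shRNA2, and 32.2 and 34.2 CPM with shControl (log2 fold change -0.88 ± 0.085, edgeR adjusted p = 2.9e-07), while DOHH, which completes it, was not called (0.17 ± 0.13, edgeR adjusted p = 0.274).

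The 4 eEF1 genes, EEF2 and EEF2K were all higher, by mostly small steps, except that with total counts EEF1G was not called and EEF2 stood at -0.01 and was not called. EEF1A1 had 8461 and 8482 CPM with shRNA1, 8512 and 8577 CPM with shRNA2, and 6952 and 6913 CPM with shControl (log2 fold change 0.30 ± 0.021, edgeR adjusted p = 7.9e-09), without overlap between the groups. Per kilobase of exon, the mean level of EEF1A1 was 1430 CPM in hairpin libraries and 1166 CPM in shControl libraries, and that of EEF2 was 945 CPM in hairpin libraries and 856 CPM in shControl libraries, the highest per-length levels of the 52 genes. Of the exchange-factor subunits that recharge eEF1A, EEF1D had 242 and 252 CPM with shRNA1, 248 and 268 CPM with shRNA2, and 163 and 169 CPM with shControl (log2 fold change 0.60 ± 0.039, edgeR adjusted p = 3.0e-09), EEF1G had 1539 and 1542 CPM with shRNA1, 1502 and 1564 CPM with shRNA2, and 1335 and 1349 CPM with shControl (log2 fold change 0.20 ± 0.026, edgeR adjusted p = 9.2e-06), and EEF1B2 was higher by 0.26 ± 0.037 (edgeR adjusted p = 1.9e-05). EEF2 had 3698 and 3775 CPM with shRNA1, 3833 and 3914 CPM with shRNA2, and 3395 and 3502 CPM with shControl (log2 fold change 0.14 ± 0.024, edgeR adjusted p = 1.1e-04). EEF2K, the kinase that inhibits eEF2, was higher with either scaling and had 66.5 and 60.8 CPM with shRNA1, 71.8 and 72.0 CPM with shRNA2, and 36.5 and 37.2 CPM with shControl. For EEF2K the log2 fold change was 0.87 ± 0.062, with an edgeR adjusted p of 7.8e-09.

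Many elongation factor mRNAs are TOP mRNAs, and the first 20 bases at the RefSeq start (GRCh38.p14) are given for the 11 of 42 matched genes that begin with C and at least 4 more pyrimidines. Capitals mark the unbroken pyrimidine run.
EEF1A1 (chr6:73521013-73521032, minus strand): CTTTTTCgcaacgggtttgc
EEF1B2 (chr2:206159895-206159914, plus strand): CCTTTTTCCTCTCTTCagcg
EEF2 (chr19:3985444-3985463, minus strand): CTCTTCCgccgtcgtcgccg
EIF3D (chr22:36529147-36529166, minus strand): CTCTTTTCCTggtttctcaa
EIF3F (chr11:7987337-7987356, plus strand): CTTCTTTCTCgacaagatgg
EIF3K (chr19:38619188-38619207, plus strand): CTCTTCCTgttcccgtcctt
EIF3M (chr11:32583831-32583850, plus strand): CTTTTCCggtcggcgtggtc
EIF4B (chr12:53006456-53006475, plus strand): CTTTTgcgttctctttccct
EIF4A2 (chr3:186783577-186783596, plus strand): CTTTTCagtcgggcgctgag
EIF2S3 (chrX:24054956-24054975, plus strand): CTCTTTTggcaacatggcgg
EIF2A (chr3:150546787-150546806, plus strand): CTCTTTCCgggacaacatgg
Such a start was present in 26.2% of the matched factors, in 7.29% of 11026 tested genes with a window and in 4.07% of all 35116 windows. Of these 11 genes, 8 were higher (from EEF2 at 0.14 to EIF3K at 0.79), EIF4A2 and EIF2S3 were lower and EIF2A was not called. Their median log2 fold change was 0.22, and that of the 31 matched factors without such a start was 0.39.

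Both release factors were higher. ETF1 encodes eRF1, which reads stop codons, and had 177 and 170.4 CPM with shRNA1, 168 and 173 CPM with shRNA2, and 122 and 111 CPM with shControl. For ETF1 the log2 fold change was 0.56 ± 0.045, with an edgeR adjusted p of 2.9e-08. GSPT1 encodes the GTPase eRF3a and had 303 and 304 CPM with shRNA1, 293 and 302 CPM with shRNA2, and 234 and 239 CPM with shControl. For GSPT1 the log2 fold change was 0.34 ± 0.032, with an edgeR adjusted p of 1.7e-07. PABPC4, a poly(A)-binding protein, had 318 and 307 CPM with shRNA1, 309 and 309 CPM with shRNA2, and 188 and 183 CPM with shControl. For PABPC4 the log2 fold change was 0.75 ± 0.033, with an edgeR adjusted p of 3.8e-11. PABPC1, the main cytoplasmic poly(A)-binding protein, had 2138 and 2098 CPM with shRNA1, 2117 and 2089 CPM with shRNA2, and 1921 and 1907 CPM with shControl; it was higher by 0.14 ± 0.024 (edgeR adjusted p = 1.1e-04) but stood at -0.01 with total counts.

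Ratios within a library do not depend on how libraries are scaled, so 8 pairs of related genes were set against each other; the ratios are of CPM and are not adjusted for transcript length. EIF4EBP1 to EIF4EBP2 was 0.224 and 0.184 with shRNA1, 0.180 and 0.192 with shRNA2, and 1.07 and 1.29 with shControl. EIF4E to EIF4E2 was 0.698 and 0.653 with shRNA1, 0.616 and 0.638 with shRNA2, and 1.32 and 1.39 with shControl. EIF5A to EIF5A2 was 24.9 and 29.9 with shRNA1, 25.5 and 31.7 with shRNA2, and 8.24 and 8.33 with shControl. All 3 ratios were separated between the groups, by -2.60, -1.06 and 1.75 on the log2 scale.

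The other 5 pairs also separated without overlap. EIF4G1 to EIF4G3 averaged 7.53 in hairpin libraries and 4.43 in shControl libraries, and EIF4G1 to EIF4G2 averaged 0.992 in hairpin libraries and 0.800 in shControl libraries. EIF4A1 to EIF4A2 averaged 4.46 in hairpin libraries and 3.31 in shControl libraries, so the helicase ratio moved toward EIF4A1 while both genes were lower. EIF1 to EIF1B averaged 13.6 in hairpin libraries and 20.5 in shControl libraries, and PABPC1 to PABPC4 averaged 6.80 in hairpin libraries and 10.3 in shControl libraries. With 4 against 2 libraries the exact two-sided permutation test cannot go below p = 0.133, and it gave 0.133 for each of the 8 pairs, also after Benjamini-Hochberg adjustment over them.

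**Figure D3:**
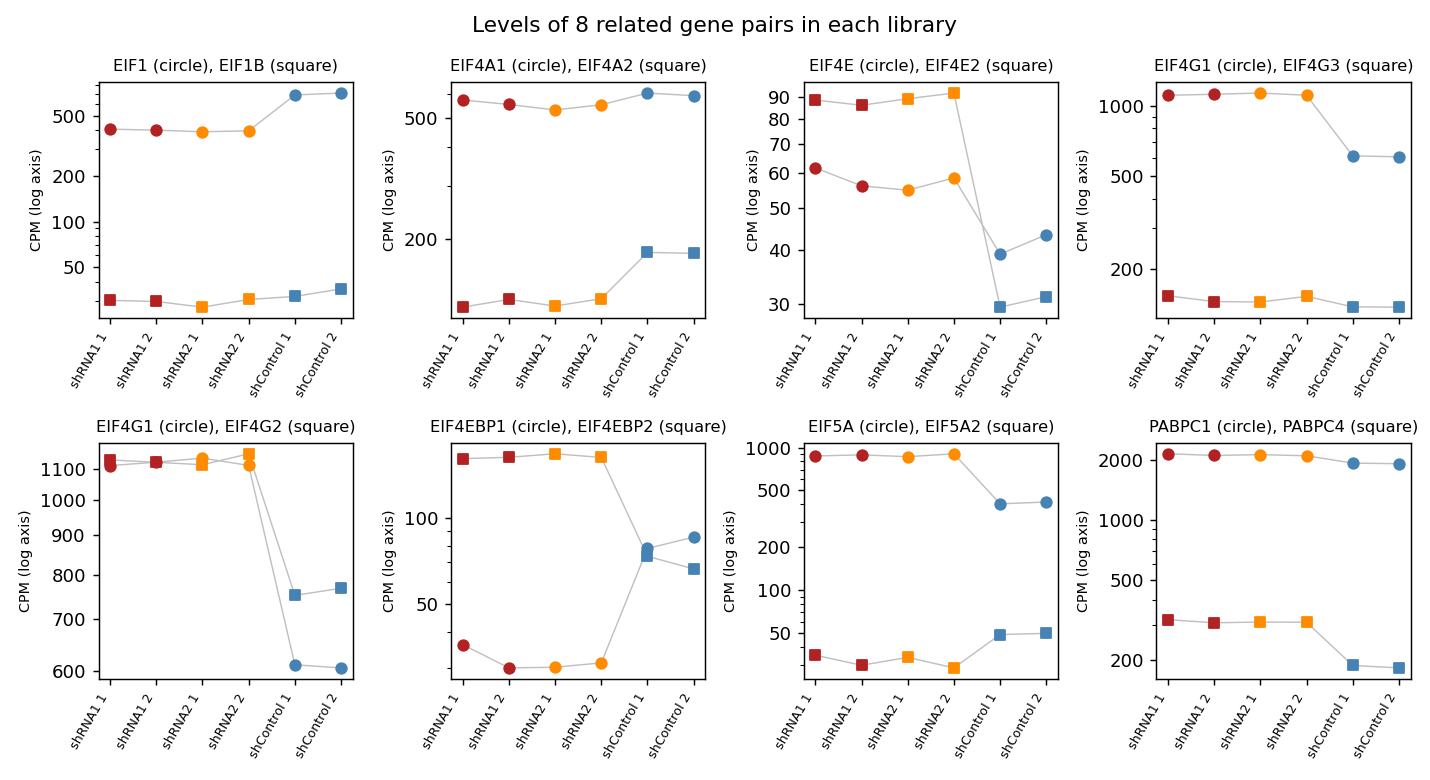
CPM (y axis, log scale) of 8 pairs of related genes in each library, circles for the gene named first and squares for the second; red is shRNA1, orange shRNA2 and blue shControl, and grey lines only join the points of a gene. The lines of EIF4E and EIF4E2 cross between the hairpin and shControl libraries, as do those of EIF4EBP1 and EIF4EBP2; these CPM are not adjusted for length, so a crossing shows a change of ratio and not an order of levels.

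Around the 52 factors, 61 further translation genes in 6 lists were examined and 58 could be tested. Of these 26 were higher, 9 were lower and 23 were not called, with a median log2 fold change of 0.14, against 28.6% higher and 28.9% lower over all tested genes. Other initiation, recycling and rescue factors had 6 of 8 tested genes higher and none lower, and with total counts 5 were higher and 1, EIF2D, was lower. DDX3X, a helicase that helps structured mRNAs load, had 405 ± 7.94 CPM over the 4 hairpin libraries and 220.1 ± 9.36 CPM over the 2 shControl libraries (log2 fold change 0.88 ± 0.034, edgeR adjusted p = 6.1e-12). HBS1L, which rescues stalled ribosomes, was higher by 0.79, and DENR and MCTS1, which together support re-initiation, by 0.65 and 0.76. GSPT2 and EIF4E1B had 0 counts in every library.

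Among other elongation genes 4 of 5 were higher (3 with total counts, where TPT1 was lower), led by EEF1A2, a second eEF1A gene, at 719.9 ± 23.3 CPM over the 4 hairpin libraries and 467 ± 13.5 CPM over the 2 shControl libraries (log2 fold change 0.62 ± 0.034, edgeR adjusted p = 3.6e-10). SECISBP2, EEF1E1 and EEFSEC were higher by 0.52, 0.43 and 0.20. Of the mitochondrial translation factors 5 of 11 were higher and none was lower (3 and 0 with total counts); TUFM, the mitochondrial EF-Tu, was higher by 0.58 ± 0.033, GFM1, the mitochondrial elongation factor G1, by 0.55 ± 0.080, MTRF1L, a mitochondrial release factor, by 0.65 ± 0.085, and MRRF, the recycling factor, by 0.32 ± 0.10.

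Of the cap- and mTORC1-linked regulators 4 of 13 tested were higher and 4 were lower (3 and 7 with total counts), close to the 28.6% and 28.9% of all tested genes. MKNK2, a kinase that phosphorylates eIF4E, had 239 ± 15.4 CPM over the 4 hairpin libraries and 435 ± 13.0 CPM over the 2 shControl libraries (log2 fold change -0.86 ± 0.048, edgeR adjusted p = 6.3e-08). RPS6KB2, an S6 kinase, was higher by 0.69, while the other S6 kinase gene, RPS6KB1, was lower (-0.38). EIF4ENIF1, the eIF4E transporter, was higher by 0.54, and CYFIP1, an eIF4E-binding partner of FMRP, by 0.27. Of the modifiers of elongation factors 4 of 15 were higher and 3 were lower (3 and 4 with total counts), where 28.6% and 28.9% of all tested genes were. Besides DHPS, the lower ones were the eEF1A lysine methyltransferases EEF1AKMT2 (-0.61) and EEF1AKMT3 (-0.64). EEF1AKMT4 was higher (0.60) and EEF1AKMT1 was not called (-0.09). METTL13, which methylates another residue of eEF1A, was higher (0.66). Of the eIF2 kinases and phosphatase subunits 3 of 6 were higher and 2 were lower (1 and 3 with total counts). PPP1R15A, the stress-induced subunit also known as GADD34 that directs eIF2 dephosphorylation, had 233 ± 5.80 CPM over the 4 hairpin libraries and 416 ± 9.61 CPM over the 2 shControl libraries (log2 fold change -0.83 ± 0.032, edgeR adjusted p = 6.1e-12). The kinases EIF2AK3 (PERK), EIF2AK1 (HRI) and EIF2AK4 (GCN2) were higher by 0.56, 0.15 and 0.18, and EIF2AK2 (PKR) was lower (-0.19). Errors of mean CPM are SD over 4 hairpin and 2 shControl libraries.

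**Figure D4:**
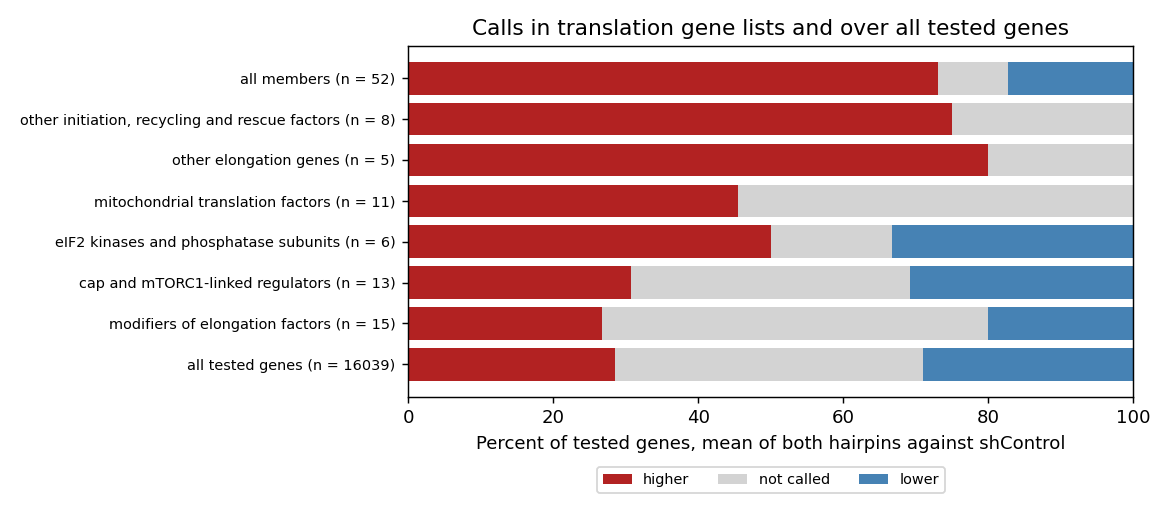
Share of tested genes (x axis, percent) called higher (red), not called (grey) or lower (blue) for the mean of both hairpins against shControl, in the 52 translation factors (all members), 6 further translation gene lists and all tested genes. The factors have 73.1% higher and 17.3% lower, against 28.6% and 28.9% over all tested genes. With total counts, which are not drawn, the factors have 28 of 52 higher and 11 lower, against 21.2% and 37.6% of all tested genes.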

How the data were processed

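Total RNA of 786-O cells was made into paired-end Illumina libraries, per the labels' protocols. The authors deposited whole-number counts for 60649 genes. Reads were handled with FastQC 0.11.9, Trim Galore 0.6.7, HISAT2 2.2.1 and StringTie 2.2.1 on hg38, per the submitters' processing notes; how reads were counted, on which annotation and with which strand setting is not given in the sources used here. Counts of homologues and antisense neighbours may therefore be mixed.

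The counts were fitted with edgeR 4.0.16 (R 4.3.3): filterByExpr, TMM factors, one mean per group over all 6 libraries, robust quasi-likelihood F test, and Benjamini-Hochberg adjustment over 16039 genes at 0.05. The fit was also run on simulated data in which 200 genes were raised, far fewer than were called in these data. That run cannot speak for the scaling used here or for small changes. 1 CPM stands for 14.9 to 36.0 counts; precision is that of counting plus the spread of 2 libraries a group. Replicate libraries differed by more than counting noise. Alternatives were DESeq2 1.42.0, other scalings and filters, a replicate block, a test against a fold of 1.2, removal of a trend on exon length and GC content (GENCODE 29, mgcv 1.9.3), leaving out each library, and, chosen after seeing the data, adding reads of near-identical copies.

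The 52 genes and the other lists were chosen with earlier results of these data known. Values in every library are given for the 3 genes of smallest p in each complex, those called against their complex, and both genes of each pair. For other lists, up to 4 genes of smallest p are named. DOHH, GSPT2, EIF4E1B, EIF2D, TPT1, RPS6KB1, EIF2AK2, EEF1AKMT1 and EEF1AKMT4 were named after their values were seen. METTL13 was matched by gene ID. Genes without a RefSeq window are given without sequence.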

Additional observations from a re-analysis of the deposited data

How the results depend on the processing

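Of the 52 genes, 29 kept their direction and call under every alternative run, and 46 with each library left out; adding reads of near-identical copies, an alternative chosen after seeing the data, changed no call (38 higher, 9 lower). DESeq2 called 36 higher and 7 lower. Tested against a fold of 1.2, the mean of both hairpins had 29 factors called (24 higher, 5 lower), and 22 of the other translation genes. Over all tested genes 19.3% were higher and 20.2% lower in that test. At that fold shRNA1 had 27 factors called and shRNA2 had 28. Shares over all tested genes are not given for each hairpin at that fold, nor for DESeq2, the replicate block, added copies or single libraries left out. Those counts are therefore not set against all genes. With the length and GC trend removed, 42 were higher and 5 lower; EIF1AX, EIF2B3, EIF2B5 and EIF3E gained a call (higher) and EIF1B, EIF2S3, EIF2B2 and EIF4A1 lost theirs. The median log2 fold change was 0.13 with total counts, 0.39 with the length and GC trend removed, 0.27 without a filter, 0.26 with a stricter filter, and 0.27 to 0.31 with single libraries left out. With total counts the values turned negative for EIF1AX (-0.13), EIF2B5 (-0.037), EIF3E (-0.11), EIF4G3 (-0.041), EEF2 (-0.014) and PABPC1 (-0.014), since that scaling lowers every value alike. EIF1AX was -0.0004 with a stricter filter and ranged from -0.040 to 0.073 with single libraries left out. EIF2A was -0.19, called lower, with total counts, where every value is lowered alike. With the length and GC trend removed EIF2A was 0.12. The causes of that value and of the EIF1AX values with a stricter filter or fewer libraries were not tested. With the replicate block 38 factors were higher and 9 lower. Same-numbered libraries did not deviate together (correlations 0.011, -0.029 and -0.001). These correlations cannot show whether same-numbered libraries were grown or processed together.

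LINC02068 kept its direction but lost its call with DESeq2 (-1.45), with the replicate block (-1.52), against a fold of 1.2 (-1.46) and with the length and GC trend removed (-1.41), and ranged from -2.26 to -1.02 with single libraries left out, losing the call in all of these but that without shRNA1 replicate 1 (-2.26). The cause was not tested.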

Other observations

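Of the promoter windows matched for 42 factors, 2 (EIF4A2 and EEF1B2) held GAANNTTC, the core of a heat shock element, against 5.71% of tested genes, and none held TGATGNAA, an element of ATF4-type sites, against 2.31% of tested genes (both strands of the 250 bases before the start). EIF2A shares exonic bases with SERP1 on the other strand, which was counted at 159% of its level and was higher by 0.23 on the log2 scale, and EIF2B1 with DDX55, at 41.4% of its level, which was not called (log2 fold change 0.20, edgeR adjusted p = 0.166).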
